A study of Homo sapiens with 7 samples.

Results

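The genes for 49 chromatin-modifying enzymes and enzyme subunits were followed from transcription rate (TR) to mRNA abundance (RA) and on to translation activity (TA) in HCT116 cells, an established human colorectal carcinoma line. They are set by a list of symbols, drawn up with earlier results of these data known and applied without a measured value, and comprise 12 histone demethylases, 15 histone methyltransferases and subunits, 6 DNA methylation enzymes, 11 histone deacetylases and 5 histone acetyltransferases. All 49 symbols were found among the 20056 with values. All 49 were also among the 14305 genes tested, whose mean reached 1 RPKM or more in TR, RA or TA. TET1 and HDAC9 reached it in TR alone, so for them mean RA and TA below mean TR followed from the filter. RPKM is the read count over the exons of a gene, scaled by the length of those exons and by the size of the library.

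The cells were in exponential growth in a serum-free medium, with no treatment contrasted. TR was read in 2 libraries by GRO-seq, in which engaged polymerases extend their transcripts in isolated nuclei, RA in 3 libraries by RNA-seq of purified mRNA, and TA in 2 libraries from mRNA that sedimented with polysomes of cells given cycloheximide. The study calls the replicates biological, and the labels do not say whether they came from separate cultures, so p-values measure the spread between these libraries. Every library came from this 1 line, so the values describe 1 genotype in 1 growth state.

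Histone methyltransferases and acetyltransferases place methyl or acetyl groups on histone tails, demethylases and deacetylases take them off, and the DNMT and TET enzymes methylate cytosine and oxidise methylcytosine in DNA. Many of these proteins work as the catalytic subunit of a larger complex, and paralogues often share a substrate while differing in the complexes they join. HCT116 is known for somatic mutations that follow from loss of mismatch repair, and it is widely used for work on DNA methylation.

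The library sizes recovered from the RPKM values were 3391897 and 5629982 reads for TR, 20299018 to 22532134 for RA, and 30805391 and 22421062 for TA. Of each size, 99.7% to 99.8% fell on genes of the table, so it need not count all mapped reads. For a gene with exons of 2962 bases, the median of the table, 1 RPKM corresponded to 10.05 reads for the smallest TR library and 91.2 for the largest TA library, so low values in TR rest on the fewest reads. Of 7 epithelial markers, 6 reached 1 RPKM in every RA library, and the exception was VIL1, at a mean of 0.0118 RPKM in RA. Of 8 markers of blood, endothelial and connective tissue cells, 6 did not reach it, and CD68 and COL1A1 did, at means of 23.1 and 11.5 RPKM in RA. RPKM values are shares of a library, so the ratios below compare a gene with the rest of its library and carry no count of molecules per cell.

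**Figure D1:**
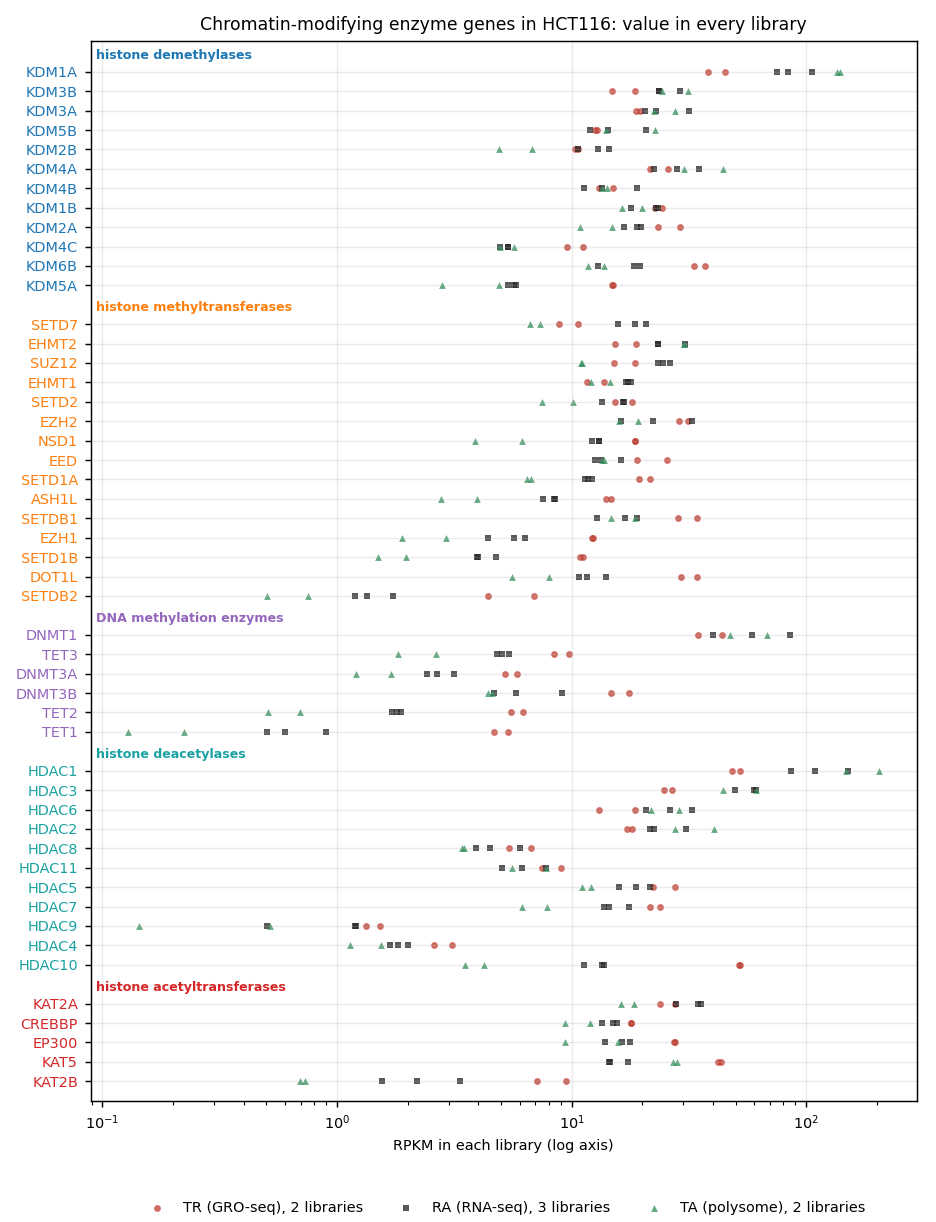
RPKM (log axis) of the 49 genes in every library, grouped by enzyme class and ordered by log2(RA/TR) within it, with circles for the 2 TR libraries, squares for the 3 RA libraries and triangles for the 2 TA libraries. Gene means ran from 1.43 to 52 RPKM in TR and from 0.176 to 176 RPKM in TA, with HDAC1 and KDM1A at the top in TA and TET1 at the bottom.

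The levels of these genes spread out from transcription to translation. Their median was 16.9 RPKM in TR, 15.2 RPKM in RA and 10.7 RPKM in TA, against 14.2, 8.94 and 6.34 RPKM over all genes tested. Gene means ran from 1.43 to 52 RPKM in TR, from 0.666 to 115 in RA and from 0.176 to 176 in TA. Over all genes tested the highest mean rose too, from 1360 RPKM in TR to 5158 in RA and 8449 in TA. The study describes such a widening across its expressed genes, so it is not particular to these 49. Together, the 49 genes summed to 967 and 933 RPKM in TR, 1012, 908 and 880.3 RPKM in RA, and 988 and 853 RPKM in TA, and the ranges of the 3 parameters overlapped. The order of the genes changed, however. By mean RPKM, HDAC10 was the highest of the 49 in TR, rank 29 in RA and rank 36 in TA, whereas HDAC1 was rank 2 in TR and the highest in RA and TA. KAT5 went from rank 3 in TR to rank 24 in RA and back to rank 9 in TA.

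Libraries without overlap, described below for single genes, were common. Every RA library lay above every TR library for 12 members and 3474 of the 14305 genes tested, and below for 27 and 7855. Every TA library lay above every RA library for 2 and 2060, and below for 27 and 6269. Each ratio was tested with limma on log2(RPKM + 0.1) in 1 fit over all 7 libraries and all genes tested, and a gene was called at a Benjamini-Hochberg adjusted p below 0.05. RA was called above TR for 9 of the 49 genes (18.4%, against 19.2% of all genes tested) and below TR for 21 (42.9%, against 48.0%). TA was called above RA for 2 genes (4.08%, against 6.66%) and below RA for 20 (40.8%, against 29.2%). Against TR, TA was called above for 6 (12.2%, against 17.0%) and below for 33 (67.3%, against 57.5%). As deposited, the members' shares were thus near those of all genes for RA against TR, with more genes below in TA against RA. The median over all genes tested was itself off 0, at -0.58 for log2(RA/TR) and -0.37 for log2(TA/RA), so the split also depends on where 0 is put. Centring each library on its own median raised every log2(RA/TR) by 0.67, every log2(TA/RA) by 0.50 and every log2(TA/TR) by 1.17. With this centring, RA was above TR for 19 of the 49 members (35.4% of all genes tested) and below for 9 (18.4%, against 33.7%). TA was above RA for 6 (12.2%, against 19.0%) and below for 9 (18.4%, against 9.81%). Centred, RA was thus below TR for a smaller share of the members than of all genes. The 9 genes with RA above TR and the 2 with TA above RA were called on both scales, as were 9 of the 21 with RA below TR and 9 of the 20 with TA below RA. Because centring raised every ratio, calls above could hardly be lost by it, and only the calls below were put to a check. Centred, TA against TR gave 19 members above and 13 below, against 38.0% and 35.3% of all genes tested. The median over the 49 genes was -0.50 for log2(RA/TR) and -0.46 for log2(TA/RA), and both turned with centring, to 0.18 and 0.04.

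**Figure D2:**
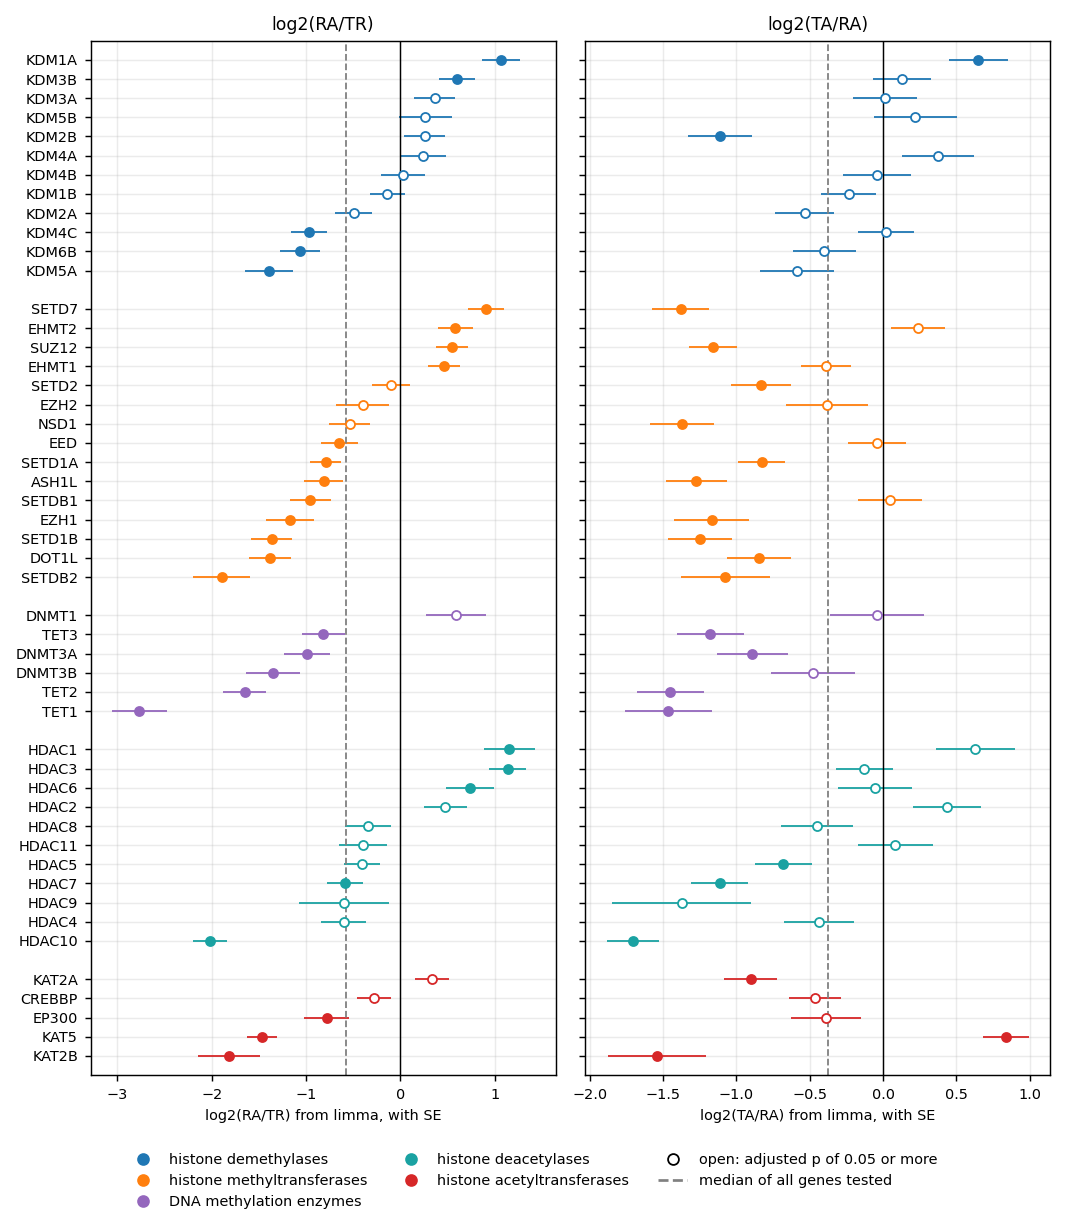
log2(RA/TR) in the left panel and log2(TA/RA) in the right panel, from the limma fit, for the 49 genes in the same order, with error bars of 1 SE, filled points for called genes and open points for the others. The dashed lines are the medians of all genes tested (-0.58 and -0.37); KDM1A is filled to the right of 0 in both panels, TET1, HDAC10 and KAT2B far to the left in both, and SETD7, SUZ12 and KAT5 change sides.

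Both steps together sorted the genes into a few patterns. Shares of all genes tested in these joint patterns are not given here, so the counts describe the members alone. A fall at both steps was called for 13 genes, namely SETD1A, SETD1B, SETDB2, EZH1, DOT1L, ASH1L, DNMT3A, TET1, TET2, TET3, HDAC7, HDAC10 and KAT2B, of which only 5 kept both calls once libraries were centred, namely SETD1B, TET1, TET2, HDAC10 and KAT2B. KDM1A alone was called above at both. SETD7 and SUZ12 were called above in RA and below in TA, and KAT5 the other way round. KDM1A, SETD7, SUZ12 and KAT5 kept both calls with centring, though its upward shift favours the calls above. RA was called above TR, with no call for TA against RA, for KDM3B, EHMT1, EHMT2, HDAC1, HDAC3 and HDAC6. RA was called below TR, with no call at the next step, for KDM4C, KDM5A, KDM6B, SETDB1, EED, DNMT3B and EP300. A call at the second step alone, with TA below RA, was made for KDM2B, SETD2, NSD1, HDAC5 and KAT2A. The other 14 genes had neither call. Because RA enters both ratios, error in RA moves them in opposite directions, and no relation between them was computed.

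The DNA methylation enzymes had the lowest median of the 5 classes at both steps, with DNMT1 apart from the rest. Of the 6 genes, 5 had RA called below TR (83.3%, against 48.0% of all genes tested) and 4 had TA called below RA (66.7%, against 29.2%), and none was called above. With libraries centred, TET1 and TET2 had RA below TR (33.7% of all genes tested) and TA below RA (9.81%), and DNMT1 had RA above TR (35.4%). The median over the 6 genes was -1.17 for log2(RA/TR) and for log2(TA/RA) -1.03, which is -0.59 and -0.66 relative to the medians of all genes tested. At the step from RA to TA the methyltransferases had the lower median without TA replicate 2 (-0.49 against -0.41 relative to all genes), with a pseudocount of 1 (-0.56 against -0.35) and with at least 1 RPKM required in each parameter (-0.56 against -0.40). TET1 (chr10:70320094-70454244, plus strand of GRCh37), a dioxygenase that converts 5-methylcytosine to 5-hydroxymethylcytosine, was at 5.35 and 4.67 RPKM in TR, 0.601, 0.505 and 0.893 RPKM in RA and 0.129 and 0.223 RPKM in TA. Every RA value lay below both TR values, and both TA values below every RA value. Its log2(RA/TR) was -2.77 (SE 0.29, adjusted p = 7.2e-05), the lowest of the 49 genes, and its log2(TA/RA) was -1.46 (SE 0.29, adjusted p = 0.0088). The TA values rest on 38 and 48 reads, against 174 and 252 in the much smaller TR libraries. TET1 passed the filter through TR alone (mean 5.01 RPKM, against 0.666 in RA). The direction of its RA against TR was thus set by the filter, though not its size.

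Its paralogues had the same order of parameters. TET2 (chr4:106067032-106200973, plus strand), which oxidises methylcytosine like TET1, was at 6.23 and 5.53 RPKM in TR, 1.72, 1.8 and 1.88 RPKM in RA and 0.695 and 0.509 RPKM in TA. TET3 (chr2:74212037-74335303, plus strand), the third oxidase of the family, was at 9.71 and 8.45 RPKM in TR, 4.8, 5.06 and 5.43 RPKM in RA and 2.63 and 1.82 RPKM in TA. In both genes the TR, RA and TA libraries did not overlap. For TET2, log2(RA/TR) was -1.65 (SE 0.23, adjusted p = 3.3e-04) and log2(TA/RA) was -1.45 (SE 0.23, adjusted p = 0.0043), and for TET3 they were -0.82 (SE 0.23, adjusted p = 0.013) and -1.18 (SE 0.23, adjusted p = 0.0077). The family therefore took a decreasing share of the RPKM of the 6 genes, with TET1, TET2 and TET3 at 6.22%, 7.31% and 11.3% in TR and 0.259%, 0.942% and 3.5% in TA.

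DNMT1 (chr19:10244018-10341962, minus strand), the maintenance methyltransferase that copies methylation onto newly replicated DNA, was the gene of the class that was not called at either step as deposited, with 43.6 and 34.6 RPKM in TR, 85.2, 39.9 and 58.7 RPKM in RA and 47.6 and 67.9 RPKM in TA. The RA libraries ranged widely and overlapped both other parameters, while both TA values lay above both TR values. Its log2(RA/TR) was 0.59 (SE 0.32, adjusted p = 0.14) and its log2(TA/RA) was -0.04 (SE 0.32, adjusted p = 0.94), the latter becoming 0.46 once libraries were centred. RA was called above TR for it with libraries centred (log2 1.26, adjusted p = 0.0058) and without RA replicate 2 (log2 0.86, adjusted p = 0.022). Its share of the class was 48.3% ± 1.45 of TR, 77.6% ± 4.04 of RA and 86.2% ± 4.11 of TA (SD over 2, 3 and 2 libraries). The de novo methyltransferases, in contrast, both had RA called below TR. DNMT3B (chr20:31350191-31397165, plus strand) was at 17.6 and 14.7 RPKM in TR, 9.11, 4.68 and 5.8 RPKM in RA and 4.4 and 4.56 RPKM in TA, and DNMT3A (chr2:25450724-25565459, minus strand) at 5.83 and 5.21 RPKM in TR, 3.15, 2.43 and 2.67 RPKM in RA and 1.69 and 1.2 RPKM in TA. In both genes the parameters were separated and descended from TR to RA to TA. For DNMT3B, log2(RA/TR) was -1.35 (SE 0.29, adjusted p = 0.0034) and the step from RA to TA was not called, at -0.48 (SE 0.29, adjusted p = 0.22). For DNMT3A, log2(RA/TR) was -0.98 (SE 0.24, adjusted p = 0.0074) and log2(TA/RA) was -0.89 (SE 0.24, adjusted p = 0.025). Some of these calls were lost when 1 library was left out, which also changes the spread of the fit. The TR libraries do not enter log2(TA/RA) and can affect its calls only through the fit. Without TR replicate 1 the RA/TR calls of DNMT3A (log2 -0.90), DNMT3B (-1.22) and TET3 were lost, the last also without TR replicate 2 (TET3 -0.92 to -0.72). For TA/RA, DNMT3A lost its call without TR replicate 1 or 2, RA replicate 3 or TA replicate 2 (-0.91 to -0.66) and TET1 without TA replicate 1 (-1.21).

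Among the 15 histone methyltransferases and subunits, most calls at the step from RA to TA were downward. TA was called below RA for 10 genes (66.7%, against 29.2% of all genes tested) and above it for none, and RA was called below TR for 8 (53.3%, against 48.0%) and above for 4 (26.7%, against 19.2%). With libraries centred, TA was below RA for 5 and above for 1 (9.81% and 19% of all genes tested). The balance of RA against TR then turned, to 3 below and 5 above (33.7% and 35.4%). Their summed RPKM was 273 and 268 RPKM in TR, 224, 200.4 and 211 RPKM in RA, and 148 and 141 RPKM in TA, and the parameters did not overlap. The median log2(TA/RA) was -0.85 (-0.47 relative to all genes tested) and the median log2(RA/TR) -0.65 (-0.07 relative to all genes tested, and turned to 0.03 with libraries centred). The 8 genes with RA below TR had log2(RA/TR) of -1.90 to -0.65, and the 10 with TA below RA had log2(TA/RA) of -1.38 to -0.83.

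SETDB2 (chr13:50018410-50069139, plus strand), a member of the family of histone H3 lysine 9 methyltransferases, was lowest of the class in log2(RA/TR), with 4.41 and 6.88 RPKM in TR, 1.2, 1.35 and 1.73 RPKM in RA and 0.501 and 0.753 RPKM in TA. All RA values lay below both TR values, and both TA values below all RA values. This gave a log2(RA/TR) of -1.90 (SE 0.30, adjusted p = 7.1e-04) and a log2(TA/RA) of -1.08 (SE 0.30, adjusted p = 0.027). SETD7 (chr4:140417095-140527853, minus strand), which monomethylates histone H3 lysine 4 and non-histone proteins, was highest in log2(RA/TR) and lowest in log2(TA/RA), with 10.7 and 8.87 RPKM in TR, 20.7, 15.8 and 18.7 RPKM in RA and 6.64 and 7.31 RPKM in TA. Its RA libraries stood above all others, and its TA libraries below even TR, an order of TA and TR that turned with centring (log2(TA/TR) -0.48, or 0.70 centred). RA was 1.87-fold TR, a log2(RA/TR) of 0.90 (SE 0.19, adjusted p = 0.0034), and RA was 2.6-fold TA, a log2(TA/RA) of -1.38 (SE 0.19, adjusted p = 0.0035). EHMT2 (chr6:31847536-31865475, minus strand), the catalytic G9a subunit for H3 lysine 9 methylation, was highest of the class in log2(TA/RA), with 18.9 and 15.3 RPKM in TR, 30.3, 23.4 and 23.4 RPKM in RA and 30.2 and 30.1 RPKM in TA. RA and TA both lay above TR and overlapped each other. Its log2(RA/TR) was 0.58 (SE 0.19, adjusted p = 0.023), and its log2(TA/RA), 0.24 (SE 0.19, adjusted p = 0.35), was not called.

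The core of Polycomb repressive complex 2, which methylates H3 lysine 27, was split across patterns. SUZ12, its scaffold subunit (chr17:30264026-30328057, plus strand), was at 18.6 and 15.2 RPKM in TR, 26.3, 23.4 and 24.4 RPKM in RA and 10.9 and 11.1 RPKM in TA. RA stood above TR, and TA below it, with a log2(TA/TR) of -0.61 that became 0.56 once libraries were centred. The ratios were 0.55 (SE 0.17, adjusted p = 0.018) for log2(RA/TR) and -1.16 (SE 0.17, adjusted p = 0.0036) for log2(TA/RA). EZH1 (chr17:40852293-40897067, minus strand), the less active of the catalytic paralogues, was at 12.2 and 12.4 RPKM in TR, 4.41, 6.31 and 5.68 RPKM in RA and 2.91 and 1.9 RPKM in TA. It descended at each step without overlap, with a log2(RA/TR) of -1.17 (SE 0.26, adjusted p = 0.0039) and a log2(TA/RA) of -1.17 (SE 0.26, adjusted p = 0.012). EZH2 (chr7:148504349-148581413, minus strand), the main catalytic subunit in dividing cells, was at 31.5 and 28.7 RPKM in TR, 32.7, 16.2 and 22.2 RPKM in RA and 15.9 and 19.1 RPKM in TA. Its RA libraries overlapped those of TR and TA, and neither ratio was called, at -0.40 (SE 0.28, adjusted p = 0.24) and -0.38 (SE 0.28, adjusted p = 0.32). EED, which binds methylated H3 lysine 27, was at 19 and 25.4 RPKM in TR, 16.3, 12.6 and 13.4 RPKM in RA and 13.7 and 13.5 RPKM in TA. Its RA lay below TR and overlapped TA, with a log2(RA/TR) of -0.65 (SE 0.20, adjusted p = 0.02), which became 0.03 once libraries were centred, and a log2(TA/RA) of -0.04 (SE 0.20, adjusted p = 0.91).

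The other methyltransferases were mostly called in TA against RA. NSD1, a methyltransferase of H3 lysine 36, had a log2(TA/RA) of -1.37 (adjusted p = 0.0044), from 13.1, 13.1 and 12.2 RPKM in RA to 6.13 and 3.88 in TA, and its log2(RA/TR) of -0.54 was not called (adjusted p = 0.058). ASH1L, also an H3 lysine 36 enzyme, had a log2(TA/RA) of -1.27, and SETD2, which trimethylates that residue, had -0.83. DOT1L, the H3 lysine 79 methyltransferase, went from 34.2 and 29.2 RPKM in TR to 11.6, 10.7 and 14 in RA and 5.55 and 7.98 in TA, all apart. SETD1A and SETD1B, catalytic subunits of H3 lysine 4 complexes, were called below at both steps, with log2(TA/RA) of -0.83 and -1.25. SETDB1, an H3 lysine 9 methyltransferase, had a log2(RA/TR) of -0.95 and a log2(TA/RA) of 0.05 (adjusted p = 0.89), and 12.9% of its annotated exon bases overlap CERS2 on the opposite strand. EHMT1, the G9a-like partner of EHMT2, had a log2(RA/TR) of 0.46 and a log2(TA/RA) of -0.39 (adjusted p = 0.11). Without TR replicate 2, the RA/TR calls of SETDB1 (-0.82), EHMT2 (0.44), ASH1L (also without TR replicate 1, -0.85 to -0.78), SUZ12 (also without RA replicate 3, 0.40 to 0.55), EED (also without RA replicate 2 or 3, -0.61 to -0.44) and EHMT1 (also without RA replicate 1, 2 or 3, 0.34 to 0.48) were lost. The TA/RA calls lost were those of DOT1L without either TR replicate, RA replicate 3 or TA replicate 1 (-0.85 to -0.59), SETD2 without RA replicate 3 or TA replicate 2 (-0.78 to -0.62), SETDB2 without RA replicate 3 or TA replicate 1 (-0.94 to -0.82) and EZH1 without TA replicate 2 (-0.87).

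Histone demethylases had a higher median log2(TA/TR) than the methyltransferases, at -0.20 against -0.93, or 0.98 against 0.24 with libraries centred, a difference that was not tested. Their summed RPKM was 252 and 245 RPKM in TR, 295, 272 and 266 RPKM in RA, and 338 and 298 RPKM in TA. RA was called above TR for 2 of the 12 (16.7%, against 19.2% of all genes tested) and below it for 3 (25%, against 48.0%), and TA was called above RA for 1 and below it for 1 (8.33% each, against 6.66% and 29.2%). With libraries centred the balance of RA against TR turned, to 8 of the 12 above and 1 below (35.4% and 33.7% of all genes tested). TA was then above RA for 2, KDM1A and KDM4A, and below it for none (19% and 9.81%). The median log2(RA/TR) was 0.13 and the median log2(TA/RA) -0.01, or 0.71 and 0.36 relative to all genes tested, so the sign of the second depends on the centring. KDM1A (chr1:23345936-23410182, plus strand), the flavin-dependent LSD1 that removes methyl groups from H3 lysine 4, was at 45.3 and 38.1 RPKM in TR, 106, 75.2 and 83.6 RPKM in RA and 135 and 139 RPKM in TA. It climbed at each step with no overlap between parameters. RA was 2.1-fold TR, a log2(RA/TR) of 1.07 (SE 0.20, adjusted p = 0.0018), and TA was 1.57-fold RA, a log2(TA/RA) of 0.65 (SE 0.20, adjusted p = 0.038). The second call was lost without any 1 of the libraries other than RA replicate 1 (0.54 to 0.67), and its TA/TR value was 1.72 (SE 0.22, adjusted p = 1.6e-04).

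KDM5A (chr12:389223-498486, minus strand), a JmjC enzyme that removes H3 lysine 4 trimethylation, was lowest in log2(RA/TR), with 15 and 14.8 RPKM in TR, 5.67, 5.81 and 5.35 RPKM in RA and 4.89 and 2.8 RPKM in TA. RA lay below TR and TA below RA without overlap. Its log2(RA/TR) was -1.39 (SE 0.25, adjusted p = 0.0015), while its log2(TA/RA), -0.58 (SE 0.25, adjusted p = 0.1), was not called. KDM2B (chr12:121866899-122018928, minus strand), an H3 lysine 36 demethylase that recruits a Polycomb complex to CpG islands, was lowest in log2(TA/RA), with 10.4 and 10.6 RPKM in TR, 14.5, 10.6 and 12.9 RPKM in RA and 4.91 and 6.78 RPKM in TA. RA overlapped TR, and TA lay below both. Its log2(TA/RA) was -1.11 (SE 0.22, adjusted p = 0.0082), lost without TA replicate 1 (-0.88), and its log2(RA/TR) was 0.26 (SE 0.22, adjusted p = 0.33). KDM6B, the H3 lysine 27 demethylase JMJD3, was at 37 and 33.4 RPKM in TR, 13, 18.5 and 19.5 RPKM in RA and 13.7 and 11.7 RPKM in TA. TR stood above both other parameters, which overlapped. Only log2(RA/TR) was called, at -1.06 (SE 0.21, adjusted p = 0.0026).

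KDM4C, an H3 lysine 9 demethylase, also had RA below TR, at -0.97 (adjusted p = 0.0024), and a log2(TA/RA) of 0.02 (adjusted p = 0.95). KDM3B, which acts on the same residue, had RA above TR at 0.60 (adjusted p = 0.025), a call lost without TR replicate 2 or RA replicate 1 (0.44 to 0.50). The other 6 demethylases, KDM1B, KDM2A, KDM3A, KDM4A, KDM4B and KDM5B, had neither call, with log2(RA/TR) of -0.50 to 0.36 and log2(TA/RA) of -0.53 to 0.38. For KDM4A, 48.8% of the 5184 annotated exon bases overlap other genes, mostly an unnamed protein-coding gene on the same strand. Reads on shared bases cannot be told apart. How many of the 4509 exon bases behind its RPKM values are shared is not known.

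The histone deacetylases are given by subclass, and differences between subclasses were not tested. Of the class I enzymes, which are mostly nuclear, HDAC1 and HDAC3 had RA called above TR, and HDAC2 and HDAC8 had no call at either step. Of the class IIa enzymes, which shuttle between nucleus and cytoplasm, HDAC5 and HDAC7 had TA called below RA, and HDAC4 and HDAC9 did not. In class IIb, HDAC10 fell at both steps and HDAC6 had RA called above TR. Over the 11 genes, RA was called above TR for 3 (27.3%, against 19.2% of all genes tested) and below it for 2 (18.2%, against 48.0%), and TA was called below RA for 3 (27.3%, against 29.2%) and above it for none. With libraries centred, RA was above TR for 4 and below for 1 (35.4% and 33.7% of all genes tested). The balance of TA against RA then turned, with 2 above, HDAC1 and HDAC2, and 1 below, HDAC10 (19% and 9.81%). The class I median was 0.81 for log2(RA/TR) and 0.16 for log2(TA/RA) over 4 genes, and the class IIa median -0.59 and -0.90 over 4. Relative to all genes tested these were 1.39 and 0.53 for class I and -0.01 and -0.52 for class IIa, whose log2(RA/TR) median turned to 0.08 with libraries centred. Over the whole class, the median log2(RA/TR) was -0.39, which turned to 0.18 relative to all genes tested, and the median log2(TA/RA) was -0.44 (-0.07 relative to all genes tested, and turned to 0.06 with libraries centred).

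HDAC1 (chr1:32757684-32799236, plus strand), a catalytic subunit of the NuRD, Sin3 and CoREST complexes, had the highest log2(RA/TR) and log2(TA/RA) of the class, with 52.3 and 48.5 RPKM in TR, 151, 109 and 86.6 RPKM in RA and 204 and 148 RPKM in TA. RA and TA stood above TR and overlapped each other. RA was 2.23-fold TR, a log2(RA/TR) of 1.16 (SE 0.27, adjusted p = 0.0053), and log2(TA/RA), 0.63 (SE 0.27, adjusted p = 0.1), was not called. HDAC3 (chr5:141000443-141016416, minus strand), the deacetylase of the NCOR complexes, was at 24.7 and 26.8 RPKM in TR, 61.2, 60.1 and 49.8 RPKM in RA and 60.9 and 44.3 RPKM in TA. Its RA and TA also lay above TR, with a log2(RA/TR) of 1.14 (SE 0.19, adjusted p = 0.0011) and a log2(TA/RA) of -0.13 (SE 0.19, adjusted p = 0.64). HDAC2, the close paralogue of HDAC1, was at 17.2 and 18.1 RPKM in TR, 22.5, 30.8 and 21.5 RPKM in RA and 40.6 and 27.5 RPKM in TA. All of its RA and TA values lay above TR, though only TA against TR was called, at 0.91 (SE 0.25, adjusted p = 0.011). HDAC8, the remaining class I gene, was lower, with mean values of 6.06 (TR), 4.81 (RA) and 3.44 RPKM (TA), and was not called in either step.

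HDAC10 (chr22:50683612-50689834, minus strand), a class IIb enzyme that deacetylates polyamines, was at the opposite end, with 52 and 52.1 RPKM in TR, 13.5, 13.7 and 11.3 RPKM in RA and 3.5 and 4.22 RPKM in TA. The 3 parameters were widely separated. RA was 4.05-fold below TR, a log2(RA/TR) of -2.02 (SE 0.18, adjusted p = 2.5e-05), and TA was 3.27-fold below RA, a log2(TA/RA) of -1.71 (SE 0.18, adjusted p = 0.0025), the lowest of the 49 genes. Of its 4951 annotated exon bases, 73.6% overlap other genes, and 55.8% overlap MAPK12 on the same strand. Reads on shared bases cannot be told apart. The RPKM values rest on only 2706 exon bases, and how many of these are shared is not known. HDAC7 (chr12:48176505-48226915, minus strand), a class IIa enzyme, was at 23.9 and 21.7 RPKM in TR, 13.7, 17.5 and 14.5 RPKM in RA and 7.83 and 6.17 RPKM in TA. It descended at both steps, with a log2(RA/TR) of -0.58 (SE 0.19, adjusted p = 0.027), which became 0.09 once libraries were centred, and a log2(TA/RA) of -1.11 (SE 0.19, adjusted p = 0.0056). HDAC5, of the same subclass, was called in TA against RA, at -0.68 (SE 0.19, adjusted p = 0.028). Its log2(RA/TR) was -0.41 (SE 0.19, adjusted p = 0.094), and 24% of its annotated exon bases overlap G6PC3 on the opposite strand. HDAC4 and HDAC9 were low, at mean RA of 1.84 and 0.967 RPKM, and had log2(TA/RA) of -0.44 and -1.37 without a call (adjusted p = 0.19 and 0.054).

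HDAC6, the cytoplasmic tubulin deacetylase, was at 18.6 and 13 RPKM in TR, 20.7, 32.6 and 26.3 RPKM in RA and 28.8 and 21.8 RPKM in TA. RA lay above TR, with a log2(RA/TR) of 0.74 (SE 0.25, adjusted p = 0.031), and overlapped TA, with a log2(TA/RA) of -0.06 (SE 0.25, adjusted p = 0.89). HDAC11, the class IV enzyme, was not called, at -0.39 and 0.08. The RA/TR call of HDAC1 was lost without TR replicate 2 (1.10), that of HDAC6 without TR replicate 2 or RA replicate 2 or 3 (0.49 to 0.73), and that of HDAC7 without TR replicate 1 or 2 or RA replicate 1 or 3 (-0.66 to -0.51). The TA/RA call of HDAC5 was lost without RA replicate 2 or 3 or either TA replicate (-0.74 to -0.57). HDAC3 and HDAC10 kept their calls in log2(RA/TR), and HDAC7 and HDAC10 in log2(TA/RA), with each library left out in turn.

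All 5 histone acetyltransferases had TA called below TR as deposited (57.5% of all genes tested were), and with libraries centred log2(TA/TR) was -2.19 for KAT2B but turned to 0.01 for EP300, 0.43 for CREBBP, 0.55 for KAT5 and 0.61 for KAT2A. Their summed RPKM was 123 and 121 RPKM in TR, 73.1, 83.2 and 87.3 RPKM in RA, and 72.9 and 65 RPKM in TA, with RA and TA below TR as deposited. KAT5 (chr11:65479467-65487075, plus strand), the TIP60 catalytic subunit of the NuA4 complex, was at 43.2 and 42.2 RPKM in TR, 14.5, 14.4 and 17.4 RPKM in RA and 28.1 and 27.1 RPKM in TA. TA stood between RA and TR with no overlap. RA was 2.76-fold below TR, a log2(RA/TR) of -1.47 (SE 0.16, adjusted p = 8.2e-05), and TA was 1.79-fold RA, a log2(TA/RA) of 0.84 (SE 0.16, adjusted p = 0.0073), the highest of the 49 genes. Of its annotated exon bases, 38.6% overlap RNASEH2C on the opposite strand, and the strand setting of the counting is not given in the sources used here. KAT2A (chr17:40265129-40273385, minus strand), the GCN5 acetyltransferase of the SAGA and ATAC complexes, was at 27.7 and 23.8 RPKM in TR, 27.9, 34.5 and 35.6 RPKM in RA and 16.3 and 18.4 RPKM in TA. RA lay above TR in every library, and TA below TR. Its log2(TA/RA) was -0.90 (SE 0.18, adjusted p = 0.0083), while its log2(RA/TR), 0.34 (SE 0.18, adjusted p = 0.13), was not called.

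KAT2B (chr3:20081938-20195896, plus strand), the PCAF paralogue of KAT2A, was at 7.15 and 9.46 RPKM in TR, 3.36, 1.55 and 2.2 RPKM in RA and 0.693 and 0.73 RPKM in TA. It descended at both steps without overlap, with a log2(RA/TR) of -1.82 (SE 0.33, adjusted p = 0.0015) and a log2(TA/RA) of -1.54 (SE 0.33, adjusted p = 0.011). EP300, the p300 coactivator, was at 27.5 and 27.3 RPKM in TR, 13.9, 17.8 and 16.4 RPKM in RA and 15.7 and 9.38 RPKM in TA. RA lay below TR and overlapped TA, with a log2(RA/TR) of -0.78 (SE 0.24, adjusted p = 0.02) and a log2(TA/RA) of -0.39 (SE 0.24, adjusted p = 0.24). CREBBP, its paralogue, was at 17.8 and 17.8 RPKM in TR, 13.5, 15 and 15.6 RPKM in RA and 12 and 9.38 RPKM in TA. Its parameters descended without overlap, but neither ratio was called, at -0.28 (SE 0.18, adjusted p = 0.2) and -0.46 (SE 0.18, adjusted p = 0.077). Without either TR replicate the RA/TR call of EP300 was lost (-0.79 to -0.77), and without TA replicate 1 the TA/RA calls of KAT2A (-0.82) and KAT2B (-1.51) were lost. The class medians were -0.78 for log2(RA/TR) and -0.46 for log2(TA/RA), or -0.20 and -0.09 relative to all genes tested, and the second turned to 0.04 with libraries centred.

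Over both steps, TA was called above TR for KDM1A, KDM3B, EHMT2, HDAC1, HDAC2 and HDAC3, with log2(TA/TR) of 0.73 to 1.78. The median over the 49 genes was -0.91, against -1.08 over all genes tested, and turned to 0.27 with libraries centred. At the low end were TET1 at -4.23, HDAC10 at -3.72, KAT2B at -3.36 and TET2 at -3.10. TA was called below TR for 12 of 15 methyltransferases, 5 of 6 DNA methylation enzymes, 5 of 12 demethylases and 6 of 11 deacetylases, which is 80.0%, 83.3%, 41.7% and 54.5%, against 57.5% of all genes tested. With libraries centred these counts were 6, 4, 1 and 1, against 35.3%. Leaving out 1 library also changes the spread of the fit, so a call can be lost with its ratio unchanged, as for EZH2 without RA replicate 3 (-0.78). Some calls of TA against TR were lost when 1 library was left out. Those of KDM2B (-0.87 to -0.62), EZH2 (-0.91 to -0.65), HDAC8 (-0.94 to -0.64), HDAC9 (-2.07 to -1.30) and HDAC2 (0.63 to 0.95) were lost without TR replicate 1, TR replicate 2 or TA replicate 1, and EZH2 also without TA replicate 2 or RA replicate 3 and HDAC8 also without TA replicate 2. KDM3B (0.55 to 0.57) lost its call without TR replicate 2 or TA replicate 1, SUZ12 (-0.60 to -0.47) and KAT2A (-0.48 to -0.46) without TR replicate 1 or TA replicate 1, SETDB1 (-0.78 to -0.74) without TR replicate 2 or TA replicate 2, EED (-0.69 to -0.47) without TR replicate 2 or either TA replicate, and HDAC4 (-0.84) and CREBBP (-0.56) without TA replicate 2.

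**Figure D3:**
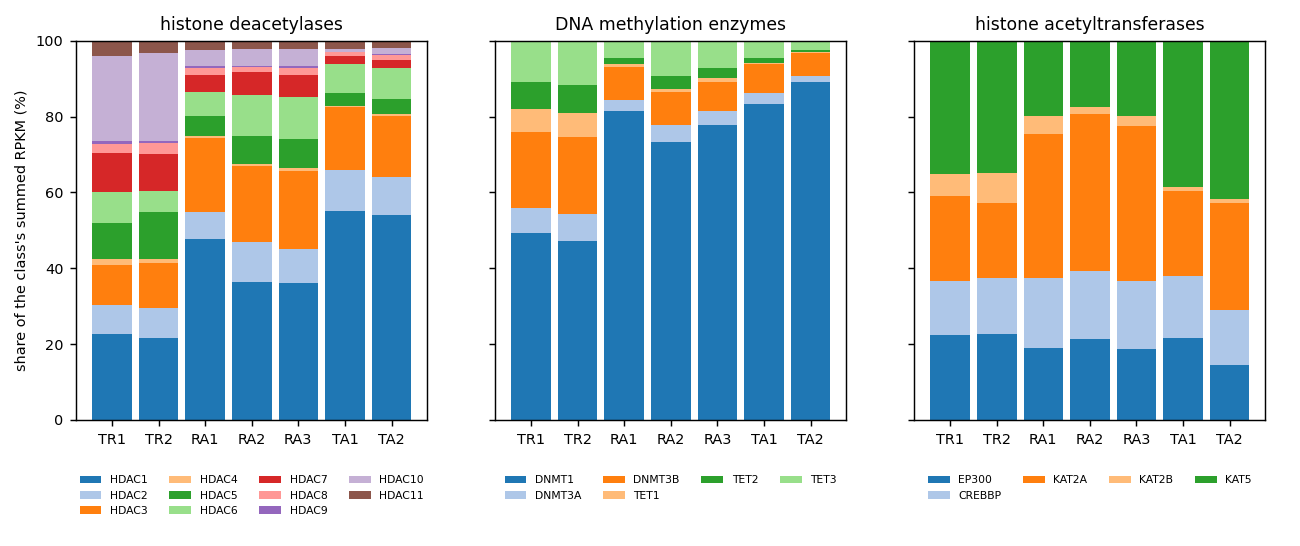
Percentage of the summed RPKM of the deacetylases, the DNA methylation enzymes and the acetyltransferases held by each gene, in stacked bars for each of the 7 libraries. HDAC1 widens from 22.7% and 21.5% in TR to 55.1% and 54% in TA, HDAC10 narrows, and DNMT1 takes 83.3% and 89.1% of its class in TA.

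The composition of each class therefore differed between TR, RA and TA. Among deacetylases, HDAC1 made up 22.1% ± 0.893 of TR, 40.1% ± 6.68 of RA and 54.6% ± 0.776 of TA (SD over 2, 3 and 2 libraries, here and below), while HDAC10 made up 22.8% ± 0.323 of TR, 4.53% ± 0.211 of RA and 1.24% ± 0.423 of TA. In the TR libraries they were close to each other, and in TA they were far apart. Among demethylases, KDM1A made up 16.8% ± 1.69 of TR, 31.6% ± 4.11 of RA and 43.3% ± 4.88 of TA, with no overlap between parameters, and KDM6B 14.2% ± 0.748 of TR, 6.18% ± 1.56 of RA and 4.0% ± 0.0863 of TA. Among methyltransferases, EHMT2 made up 6.31% ± 0.84 of TR, 12.1% ± 1.26 of RA and 20.9% ± 0.737 of TA, and DOT1L 11.7% ± 1.16 of TR, 5.72% ± 0.812 of RA and 4.71% ± 1.37 of TA. KAT5 and KAT2A exchanged places among the acetyltransferases, KAT5 at 35% ± 0.0328 of TR, 19.1% ± 1.48 of RA and 40.1% ± 2.21 of TA and KAT2A at 21.1% ± 1.9 of TR, 40.1% ± 1.74 of RA and 25.3% ± 4.18 of TA. A share depends on every other gene of its class, and scaling of whole libraries cancels in it.

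Ratios of paralogues within a library likewise do not depend on library scaling. KAT2A was 2.52 to 3.87 times KAT2B in the TR libraries, 8.3 to 22.2 times in RA and 23.5 to 25.2 times in TA. KDM5A and KDM5B were nearly level in TR, where KDM5A was 1.16 to 1.19 times KDM5B, whereas in RA it was 0.28 to 0.471 times and in TA 0.201 to 0.216 times. KDM1A was 1.58 to 2.0 times KDM1B in TR, 3.22 to 5.9 times in RA and 6.77 to 8.51 times in TA. In these 3 pairs the ratios moved the same way at both steps without overlap between parameters. HDAC1 was 2.68 to 3.04 times HDAC2 in TR, 3.53 to 6.7 times in RA and 5.04 to 5.38 times in TA, so RA and TA overlapped. SETD1A over SETD1B went from 1.79 to 1.92 in TR to 2.45 to 3.07 in RA and 3.41 to 4.3 in TA. EZH1 over EZH2 was 0.3893 to 0.431 in TR, 0.135 to 0.3891 in RA and 0.0995 to 0.183 in TA. The ratio moved away from 1 at each step in the first of these pairs, without overlap, and in the second RA lay just below TR and overlapped TA. EHMT1 over EHMT2 was 0.727 to 0.758, 0.573 to 0.763 and 0.403 to 0.482 in the same order, and EP300 over CREBBP was 1.53 to 1.54, 1.03 to 1.19 and 1.0 to 1.31. In the last pair the ratio was closer to 1 in RA and TA than in TR. For KDM2A over KDM2B (2.26 to 2.72, 1.3 to 1.86 and 1.6 to 3.03), KDM3A over KDM3B (1.05 to 1.27, 0.873 to 1.1 and 0.887 to 0.916), DNMT3A over DNMT3B (0.331 to 0.353, 0.346 to 0.519 and 0.264 to 0.384) and HDAC4 over HDAC5 (0.0944 to 0.139, 0.0843 to 0.126 and 0.102 to 0.127), ranges are given in the order TR, RA and TA. The ratios of pairs are given as values, with no test run on them.

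**Figure D4:**
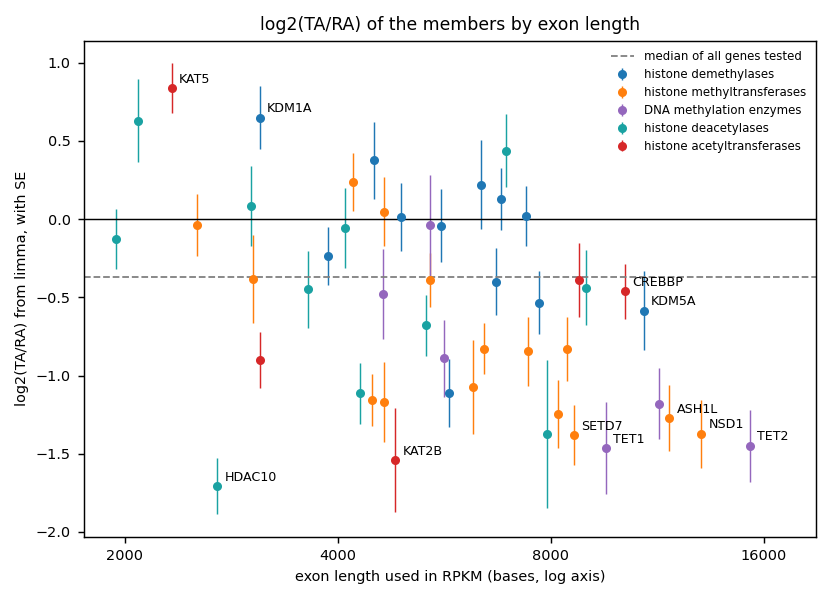
log2(TA/RA) against exon length in bases (log axis) for the 49 genes, coloured by enzyme class, with error bars of 1 SE and the median of all genes tested as a line. The 10 longest genes, from 8632 to 15321 bases, lie between -1.46 and -0.39, while the 10 shortest lie between -1.71 and 0.84.

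The exons of these genes are long in sum. Their median exon length, summed over a gene and recovered from the values, was 5603 bases, against 3026 over all genes tested. It ran from 1945 bases in HDAC3 to 15321 in TET2. The longer genes had the lower log2(TA/RA), with Spearman's rho of -0.451 over the 49 genes, given as a description across genes that share the same libraries. For single TA and RA libraries rho lay between -0.529 and -0.29. Over all genes tested it was -0.191. For log2(RA/TR), rho was -0.309 over the 49 genes and 0.0681 over all genes tested. The 10 longest genes were SETD7, EP300, HDAC4, TET1, CREBBP, KDM5A, TET3, ASH1L, NSD1 and TET2. Their median log2(TA/RA) was -1.23, with 6 called below and 0 above. Of all genes tested, of any length, 29.2% had TA called below RA and 6.66% above. The 10 shortest, namely HDAC3, HDAC1, KAT5, EED, HDAC10, HDAC11, EZH2, KDM1A, KAT2A and HDAC8, had a median of -0.08, with 2 called below and 2 above. HDAC10 departs from this order, being among the shortest and lowest in log2(TA/RA), and SETD7 is the gene among the longest with RA called above TR. Length also moved with the enzyme class, from a median of 4099 bases in the deacetylases to 7624 in the DNA methylation enzymes, and its part in the class differences was not tested.

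For comparison, 91 further chromatin genes were listed, of which 87 were found and tested. Among 45 other enzymes (further methyltransferases, demethylases, acetyltransferases, sirtuins and arginine methyltransferases), RA was called above TR for 8 (17.8%, against 19.2% of all genes tested) and below for 21 (46.7%, against 48.0%), and TA above RA for 4 (8.89%, against 6.66%) and below for 14 (31.1%, against 29.2%). Their medians were -0.51 for log2(RA/TR) and -0.24 for log2(TA/RA). Among 42 partner proteins from the complexes of these enzymes, RA was called above TR for 12 (28.6%) and below for 7 (16.7%), and TA above RA for 2 (4.76%) and below for 13 (31.0%), with medians of 0.02 and -0.37. With libraries centred, RA was above TR for 17 and below for 12 of the 45 enzymes and for 27 and 2 of the 42 partners. Of all genes tested, 35.4% were then above and 33.7% below. TA was above RA for 11 and below for 6 of the enzymes and for 7 and 3 of the partners, against 19% and 9.81%. The lowest log2(RA/TR) values called were those of KDM8 at -3.40 (adjusted p = 6.1e-06) and SETD6 at -2.80 (adjusted p = 3.4e-05), and the highest those of PRMT1, the main arginine methyltransferase, at 1.99 (adjusted p = 3.4e-05) and SETD3, the actin histidine methyltransferase, at 1.61 (adjusted p = 4.3e-05). In log2(TA/RA), KMT2C, a very large H3 lysine 4 methyltransferase, was lowest at -1.84 (adjusted p = 0.0032), followed by NCOR1, a corepressor that binds HDAC3, at -1.66 (adjusted p = 0.004). RUVBL1, an ATPase of the INO80 and NuA4 complexes, was highest at 1.30 (adjusted p = 0.0051), followed by SMYD3, a SET-domain methyltransferase, at 1.20 (adjusted p = 0.0064). In log2(RA/TR), NCOR1 was at -2.03 (adjusted p = 1.8e-04), against 1.14 (SE 0.19, adjusted p = 0.0011) for HDAC3, a difference that was not itself tested.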

How the data were processed

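The authors aligned reads with TopHat to the hg19 genome, took exon counts per gene from HTSeq-count and deposited 1 table of RPKM values, a column per library without pooling. The gene annotation, counting mode and strand setting are not given in the sources used here. Library sizes and reads were recovered from the RPKM values, which gave whole reads for 100% of values above 0 (tolerance 0.001); in simulated data, 7 of 7 sizes were recovered. These reads have no molecular identifiers and show depth only. Ratios were tested in R 4.3.3 with limma 3.58.1 (trend in eBayes) on log2(RPKM + 0.1) for genes whose mean reached 1 RPKM or more in TR, RA or TA, with adjustment over all 14305 genes and a threshold of 0.05. A log2 ratio on this scale understates changes of low genes. Other steps used Python 3.11.15 with pandas 2.3.3. Positions and annotated exon bases are from GENCODE lifted to GRCh37, which need not be the annotation that the authors counted on. Members, lists and tests were chosen with earlier results of these data known. Per-library values were given for the highest and lowest member of each class in both ratios, for paralogues and for further members chosen after their values were seen. Alternatives covered pseudocount, filters, centring, the trend, the libraries fitted, a replicate block, and single replicates left out. No sequences are shown.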

Additional observations from a re-analysis of the deposited data

How the results depend on the processing

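With each library centred on its median, the members called changed to 19 with RA above TR, 9 with RA below TR, 6 with TA above RA, 9 with TA below RA, 19 with TA above TR and 13 with TA below TR. In the same order, 35.4%, 33.7%, 19%, 9.81%, 38% and 35.3% of all genes tested were called. This follows from the shift of the zero point by 0.67 for RA/TR, 0.50 for TA/RA and 1.17 for TA/TR on the log2 scale. Centring also turned log2(RA/TR) of EED to 0.027 and of HDAC7 to 0.088, and log2(TA/RA) of DNMT1 to 0.46. Among members without a call, signs turned as well, so that 13 of 49 signs in all changed in log2(RA/TR) and 14 in log2(TA/RA).

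The count of members with TA above RA was 1 without a filter, with the fit limited to the 2 parameters compared, with the replicate block and with the crossed replicate block. With the replicate block, 7 members had TA below RA. The labels do not say whether equal replicate numbers mark a shared culture. Differences of replicate 1 from replicate 2 correlated at 0.149 between TR and RA, -0.562 between RA and TA and 0.0200 between TR and TA over 10825 genes. RA and TA libraries thus shared structure, with replicate 1 of RA tending to move with replicate 2 of TA. Its cause was not tested, and the main fit treats all libraries as independent. The block results are given only in this section. The crossed pairing was added after seeing the data.

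Leaving out each replicate in turn gave 3 to 9 members with RA above TR, the 3 without TR replicate 2, and 1 to 3 with TA above RA. The other counts ran from 15 to 23 for RA below TR and from 14 to 21 for TA below RA. For DNMT1, log2(TA/RA) ran from -0.31 to 0.23.

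Class medians relative to all genes tested moved by more than their spread over libraries as follows. Requiring 1 RPKM in each parameter left out SETDB2, TET1, TET2, HDAC9 and KAT2B, and no demethylase. It also cut the genes tested from 14305 to 10825, so the median of all genes tested, used as reference, changed as well. It gave log2(RA/TR) of -0.23 for all members, 0.30 for demethylases, -0.42 for methyltransferases and -0.20 for deacetylases. For log2(TA/RA) it gave -0.40 for DNA methylation enzymes. Both block fits gave log2(RA/TR) of 0.16 for all members and 0.35 for deacetylases. Ratios of arithmetic means gave -0.0062 for all members and -0.16 for methyltransferases. Without a filter, log2(TA/RA) was -0.63 for methyltransferases and -0.22 for deacetylases, and with a pseudocount of 1 it was -0.35 for DNA methylation enzymes. With each replicate left out, log2(RA/TR) ran from 0.045 to 0.16 for all members, -0.16 to 0.027 for methyltransferases and 0.086 to 0.35 for deacetylases, and log2(TA/RA) from -0.29 to 0.077 for all members, -0.82 to -0.41 for DNA methylation enzymes, -0.12 to 0.15 for deacetylases and -0.41 to 0.099 for acetyltransferases. Apart from the centring and the genes left out by a filter, the cause was not tested.

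The TR libraries have the fewest reads on genes, and 2 or 3 libraries a parameter limit every call. Changing the pseudocount to 0.01 changed no call of a member in either step, and a pseudocount of 1 lost 1 and gained 2.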
